A study of Mus musculus with 25 samples.

Results

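MiR-126a is a microRNA (miRNA, a short RNA that lowers the output of messenger RNAs it pairs with) whose hairpin precursor lies within the gene Egfl7. Its members here were the mature RNAs cut from the 2 arms of that hairpin, mmu-miR-126a-3p and mmu-miR-126a-5p (miR-126a-3p and miR-126a-5p in what follows). They were chosen by name and make up 2 of the 1493 entries of the count table. Both passed the filter on low counts, as did 391 entries in all. Small extracellular vesicles (sEVs), which cells shed and which are wrapped in membrane, had been isolated from liver tissue of wild-type C57BL/6J mice. The ages were 1 week, 6 weeks, 6 months, 12 months or 14 months, with 5 mice and 1 library per mouse at each age, 25 libraries in all. The genotype was the same at every age, no group was treated, and both sexes were used without the sex of a mouse being given. The field for batch repeats the age, so effects of handling and of age cannot be told apart.

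In mammals miR-126 is known as the endothelial miRNA, made with its host Egfl7 in cells that line blood vessels and also in some blood cell lineages. The 3p arm is the main guide strand and is known to lower inhibitors of growth factor signalling such as Spred1 and Pik3r2, by which it supports vessel growth and integrity. The 5p arm, long treated as a passenger strand, is also loaded into silencing complexes and is known in mouse endothelium to target Dlk1, a brake on proliferation. Liver holds a dense network of sinusoidal endothelium beside its hepatocytes, and vesicles from whole liver tissue can come from any of its cells.

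The sequences below show the guide arm that carries most of the signal, its place in the precursor, and the products of the antisense miR-126b hairpin, which are read from the opposite strand of the same place. RefSeq sequences were matched on build GRCm38.p6 for 1 of the 2 members. In each mature RNA the capitals mark the seed, bases 2 to 8, with which a miRNA pairs to its targets, and in the hairpin they mark miR-126a-3p.
miR-126a-3p: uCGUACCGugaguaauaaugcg
mir-126a hairpin: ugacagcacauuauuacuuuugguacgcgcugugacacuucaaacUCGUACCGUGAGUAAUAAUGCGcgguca
miR-126b-5p: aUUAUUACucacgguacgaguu
miR-126b-3p: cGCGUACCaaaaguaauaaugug

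The hairpin of 73 bases spans chr2:26591357-26591429 on the plus strand, and miR-126a-3p spans chr2:26591402-26591423, bases 46 to 67 of the hairpin. Its 22 bases hold 45.5% G or C. Of the 1738 mature mouse sequences in that table, 1 has this seed, miR-126a-3p itself. In the GENCODE M21 annotation Egfl7 (ENSMUSG00000026921.18), which encodes a secreted endothelial protein, spans chr2:26580014-26593120 on the plus strand. Of its 9 transcripts that span the hairpin, 8 place it in an intron, whose bounds are chr2:26591064-26591663 in the shorter form, and in 1 retained-intron transcript it is exonic.

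MiR-126b is read from the opposite strand of the same place, at chr2:26591399-26591420 for its 5p arm and chr2:26591363-26591385 for its 3p arm. The genomic places of miR-126a-3p and miR-126b-5p overlap by 19 bases. MiR-126b-3p had 0 to 49 counts per library and miR-126b-5p 0 or 1, and neither passed the filter. MiR-126a-3p had 29562 to 185090 counts per library and miR-126a-5p 3007 to 38472, so the antisense products added few counts at this place.

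Library totals ran from 641579 to 6888928 counts. By age they were 2095925 to 6888928 (1 week), 641579 to 1738208 (6 weeks), 1052751 to 2485335 (6 months), 839642 to 3778798 (12 months) and 1543907 to 3989776 (14 months), so no 6-week library was as deep as a 1-week library. MiR-122-5p, the abundant miRNA of hepatocytes, held 58.3% ± 3.22 of counts (SD, n = 25, range 53.9% to 67.5%), as the tissue label implies. Levels below are counts per 1000000 (CPM) after scaling by TMM, edgeR's trimmed mean of M-values. The TMM factors were 0.719 to 1.08 at the 4 adult ages (6 weeks to 14 months), against 1.30 to 1.79 at 1 week, so the choice of scaling bears on every level compared with 1 week. Shares are percentages of raw counts and ratios are taken within a library, and neither uses a scaling factor.

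The guide arm miR-126a-3p was among the most abundant miRNAs of liver vesicles, at rank 3 to 6 in every library. With TMM scaling its level was higher at 6 weeks than at 1 week by 0.90 on the log2 scale, and the later ages lay near the 6-week level. The passenger arm miR-126a-5p had between 4.45 and 10.8 times fewer counts, and its level was not called different between any of the ages compared. The 3p arm thus held 83.6% of the counts of both arms (1 week), 89.5% (6 weeks), 89.3% (6 months), 87.9% (12 months) and 87.1% (14 months), on average over 5 mice each.

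The 1-week libraries, from mice 1, 3, 4, 5 and 27, had 31012, 19264, 21643, 32340 and 17455 CPM of miR-126a-3p. The 6-week libraries, mice 6 to 10, had 45468, 48261, 48723, 39231 and 45765 CPM. At 6 months, mice 11 to 15, the levels were 55899, 53868, 35972, 48665 and 47281 CPM. Every library of these adult ages lay above the highest 1-week library. The 12-month libraries, mice 16 to 20, had 46403, 44999, 46359, 39698 and 43186 CPM. At 14 months, mice 21 to 25, the levels were 51918, 36647, 30028, 42250 and 46422 CPM. Mouse 23 was the only adult library inside the 1-week range, and 19 of the 20 adult libraries lay above it.

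The mean level of miR-126a-3p was 24343 ± 6873 CPM (1 week), 45490 ± 3788 (6 weeks), 48337 ± 7776 (6 months), 44129 ± 2803 (12 months) and 41453 ± 8492 (14 months), as mean ± SD with n = 5 each. Across the 5 ages the level differed in edgeR's quasi-likelihood test (F = 11.1, adjusted p = 5.06e-05), a test that called 75.4% of the 391 entries. At 6 weeks the log2 fold change against 1 week was 0.90 ± 0.16 (SE, 95% interval 0.57 to 1.24, edgeR adjusted p = 2.22e-05). In that comparison edgeR called 71.9% of the 391 entries (35% higher and 36.8% lower), and 1 of the 2 members, the 3p arm, was called higher. A call at this age step was thus common among the entries tested. Over the 4 adult ages together the log2 fold change of miR-126a-3p against 1 week was 0.88 ± 0.14 (95% interval 0.60 to 1.16, edgeR adjusted p = 1.66e-06), where 79.8% of entries were called, 39.4% higher and 40.4% lower.

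**Figure D1:**
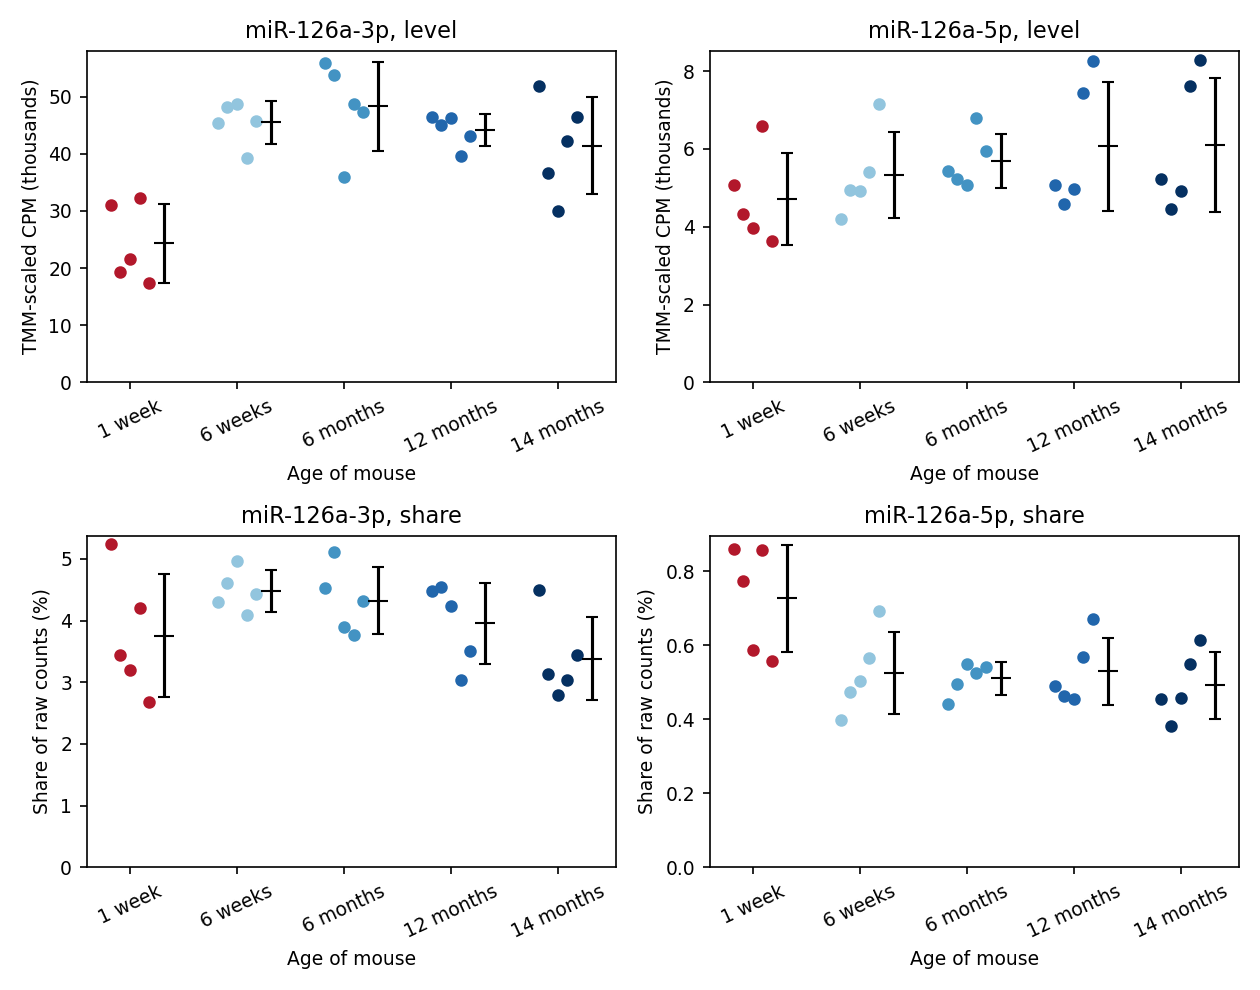
Levels (upper panels, in units of 1000 TMM-scaled CPM) and shares (lower panels, percent of raw counts) of miR-126a-3p and miR-126a-5p by age, 1 point per mouse with the mean and SD of 5 mice beside it. The 3p level is lower at 1 week than at the adult ages except for 1 library of 14 months, while the 3p shares of all ages overlap and the 5p share is highest at 1 week on average.

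The levels of the passenger arm overlapped between all ages. The 1-week libraries had 5073, 4332, 3963, 6583 and 3628 CPM of miR-126a-5p. At 6 weeks the levels were 4197, 4950, 4929, 5420 and 7148 CPM. At 6 months they were 5443, 5220, 5079, 6795 and 5940 CPM. Only mice 10 and 14 of these adult ages stood above every 1-week library. The 12-month libraries had 5066, 4595, 4977, 7426 and 8257 CPM, and the 14-month libraries 5227, 4459, 4923, 7628 and 8287 CPM. At each of these ages 2 of 5 libraries stood above every 1-week library, and 14 of the 20 adult libraries lay inside the 1-week range. The SDs were 1174 CPM (1 week), 1107 (6 weeks), 696 (6 months), 1658 (12 months) and 1729 (14 months).

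The log2 fold change of miR-126a-5p was 0.18 ± 0.20 at 6 weeks against 1 week (SE, 95% interval -0.23 to 0.59, edgeR adjusted p = 0.424). For the 4 adult ages against 1 week it was 0.30 ± 0.16 (95% interval -0.035 to 0.63, edgeR adjusted p = 0.0926), and without mouse 5 at 1 week it was 0.52 (edgeR adjusted p = 0.0178). The test over the 5 ages gave an edgeR adjusted p of 0.373. These intervals span 0 and reach up to 0.63 log2 units, so a modest rise of the 5p arm could not be told from none.

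Between adult ages neither arm was called, and few entries were. At 6 months against 6 weeks edgeR called 1.79% of entries, and the log2 fold change was 0.088 ± 0.16 for miR-126a-3p and 0.096 ± 0.20 for miR-126a-5p. At 12 months against 6 months it called 0% (0 of 391 by edgeR, DESeq2 and limma-voom, 28 at an unadjusted p under 0.05), with -0.13 ± 0.16 for the 3p arm and 0.091 for the 5p arm. At 14 months against 12 months it also called 0% (0 of 391 by the same 3 tools, 8 at an unadjusted p under 0.05), with -0.090 ± 0.16 and 0.0095. At 14 months against 6 weeks, the widest span of adult life, it called 3.84%, with -0.13 ± 0.16 for the 3p arm (95% interval -0.46 to 0.20, edgeR adjusted p = 0.622) and 0.20 ± 0.20 for the 5p arm (95% interval -0.21 to 0.61, adjusted p = 0.564). With TMM scaling the 95% intervals of both arms lay within -0.46 to 0.61 log2 units in all of these adult comparisons. With library totals alone miR-126a-3p at 14 months against 6 weeks was -0.40 (95% interval -0.72 to -0.092, edgeR adjusted p = 0.133), and with upper-quartile factors -0.34 (-0.71 to 0.035, adjusted p = 0.267).

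The level difference of the 3p arm against 1 week depended on the scaling. At 6 weeks against 1 week the log2 fold change of miR-126a-3p was 0.43 with DESeq2 size factors (edgeR adjusted p = 0.0108), 0.77 with TMM computed without miR-122-5p and 1.37 with upper-quartile factors. With library totals alone it was 0.25 and was not called (edgeR adjusted p = 0.140), and for the 4 adult ages it was 0.094 (adjusted p = 0.501). The sign of the 5p difference turned with the scaling, from -0.47 with library totals alone (edgeR adjusted p = 0.0114) to 0.64 with upper-quartile factors (adjusted p = 0.00636). These scalings also moved the median of all tested entries against its TMM value, by -0.46 with DESeq2 size factors, -0.66 with library totals alone and 0.50 with upper-quartile factors. They moved the split of calls as well, which was 137 higher and 144 lower with TMM, 107 and 165 with DESeq2 size factors, 88 and 178 with library totals alone, and 184 and 120 with upper-quartile factors.

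A scaling factor shifts all entries of a library alike, so the distance of each arm from the median of the tested entries is nearly fixed by construction, and it is given here as a position and not as a sign of stability. At 6 weeks against 1 week miR-126a-3p lay 0.75 to 0.80 log2 units above that median and miR-126a-5p 0.027 to 0.077 above it. For the 4 adult ages against 1 week the 3p arm lay 0.88 to 0.98 above it and the 5p arm 0.28 to 0.40. At 14 months against 6 weeks the 3p arm lay 0.089 to 0.098 below it and the 5p arm 0.21 to 0.25 above it.

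**Figure D2:**
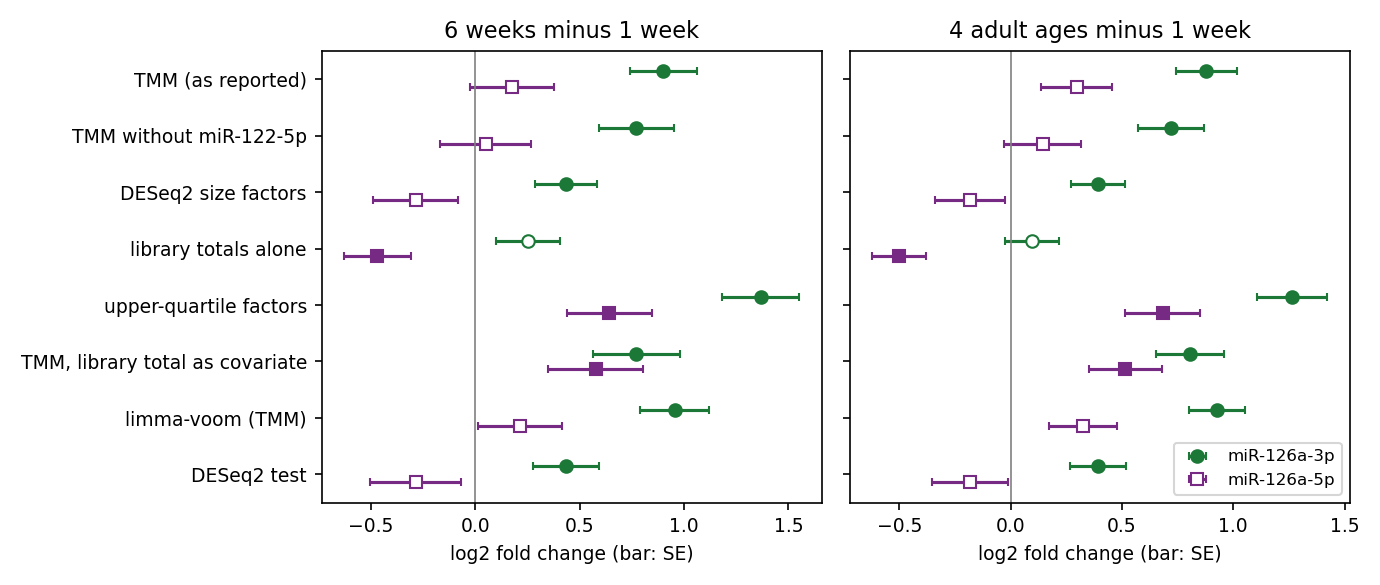
Log2 fold change of miR-126a-3p (green circles) and miR-126a-5p (purple squares) at 6 weeks (left) and over the 4 adult ages (right) against 1 week, by scaling or test, with bars of 1 SE; filled symbols have an adjusted p under 0.05. The 3p arm lies above 0 under each of them, without a call under library totals alone, and the 5p arm lies on either side of 0.

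As a share of all counts, miR-126a-3p did not separate 1 week from adult life. All 20 adult shares lay inside the range of the 5 libraries of 1 week, which had 5.25%, 3.44%, 3.20%, 4.20% and 2.69%. The mean share was 3.76% ± 0.997 (1 week), 4.48% ± 0.334 (6 weeks), 4.32% ± 0.541 (6 months), 3.96% ± 0.656 (12 months) and 3.38% ± 0.667 (14 months), as mean ± SD with n = 5 each. At 6 weeks it was 0.722 percentage points higher than at 1 week (exact two-sided permutation p = 0.159, adjusted over 6 comparisons 0.397), and 0.454 to 1.09 points higher when 1 mouse at a time was left out. The 1-week group held both the highest and the lowest share of the series.

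Along adult life the mean share of the 3p arm was lower at each later age. The 14-month libraries had 4.50%, 3.14%, 2.79%, 3.04% and 3.44%, against 4.30%, 4.61%, 4.97%, 4.08% and 4.43% at 6 weeks. In 4 of 5 mice of 14 months the share was below every 6-week library, with mouse 21 the exception. The difference was -1.09 percentage points (exact two-sided permutation p = 0.0317) and did not pass the adjustment over 6 comparisons (adjusted p = 0.190). MiR-126a-3p counts per 100 counts of miR-122-5p, a ratio of endothelial to hepatocyte miRNA, averaged 6.06 (1 week), 7.68 (6 weeks), 7.61 (6 months), 7.07 (12 months) and 5.80 (14 months). For 14 months against 6 weeks this log2 ratio differed by -0.42 (exact permutation p = 0.0317, adjusted 0.175). Both the 3p share and this ratio were lower in deeper adult libraries, as given below. Neither the share nor the ratio passed the adjustment. In vesicles of a whole tissue, the number of endothelial cells, the vesicles per cell and the miRNA per vesicle cannot be told apart. Nor can they be told from other cells that hold miR-126, from miR-122-5p itself in the ratio, or from library depth.

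The share of miR-126a-5p was lower in adult libraries than at 1 week. Of the 20 adult libraries 15 lay below all those of 1 week, which had 0.858%, 0.773%, 0.587%, 0.856% and 0.558%. The mean was 0.726% ± 0.145 (1 week), 0.525% ± 0.110 (6 weeks), 0.510% ± 0.0444 (6 months), 0.529% ± 0.0909 (12 months) and 0.491% ± 0.0907 (14 months), as mean ± SD with n = 5 each. For the 4 adult ages against 1 week the difference was -0.212 percentage points (exact permutation p = 0.00166, adjusted 0.00994), and for 6 weeks against 1 week it was -0.201 (p = 0.0556, adjusted 0.167, exact permutation). In rank the 5p arm stood at 19 to 23 in the adult libraries, against 9 to 19 at 1 week. Counting error was small beside these spreads: the widest 95% Wilson half-interval of a single library was 0.0513 percentage points for the 3p share and 0.0168 for the 5p share, for counting error only.

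The arm ratio, miR-126a-3p counts per miR-126a-5p count within one library, is free of scaling because both counts come from the same library. In the 1-week libraries it was 6.11, 4.45, 5.46, 4.91 and 4.81. At 6 weeks it was 10.8, 9.75, 9.89, 7.24 and 6.40, and at 6 months 10.3, 10.3, 7.08, 7.16 and 7.96. No library of these adult ages reached down to the 1-week range. At 12 months it was 9.16, 9.79, 9.31, 5.35 and 5.23, and at 14 months 9.93, 8.22, 6.10, 5.54 and 5.60. At 12 months 2 of 5 libraries and at 14 months 3 of 5 were inside the 1-week range.

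The log2 arm ratio averaged 2.36 ± 0.18 (1 week), 3.11 ± 0.33 (6 weeks), 3.08 ± 0.27 (6 months), 2.90 ± 0.46 (12 months) and 2.78 ± 0.37 (14 months), as mean ± SD with n = 5 each. At 6 weeks it was 0.76 ± 0.21 above 1 week (SE, 95% interval 0.34 to 1.18, limma adjusted p = 0.00394 over 79 hairpins with both arms tested). In the exact permutation test the groups did not overlap (p = 0.00794, the smallest that 5 against 5 allows, adjusted 0.0238). For the 4 adult ages against 1 week the difference was 0.61 ± 0.16 (95% interval 0.28 to 0.94, limma adjusted p = 0.00261; exact permutation p = 0.00109, adjusted 0.00655). Among adult ages no difference was called: 14 months against 6 weeks gave -0.33 ± 0.21 (95% interval -0.75 to 0.090, limma adjusted p = 0.426; exact permutation p = 0.175, adjusted 0.349).

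**Figure D3:**
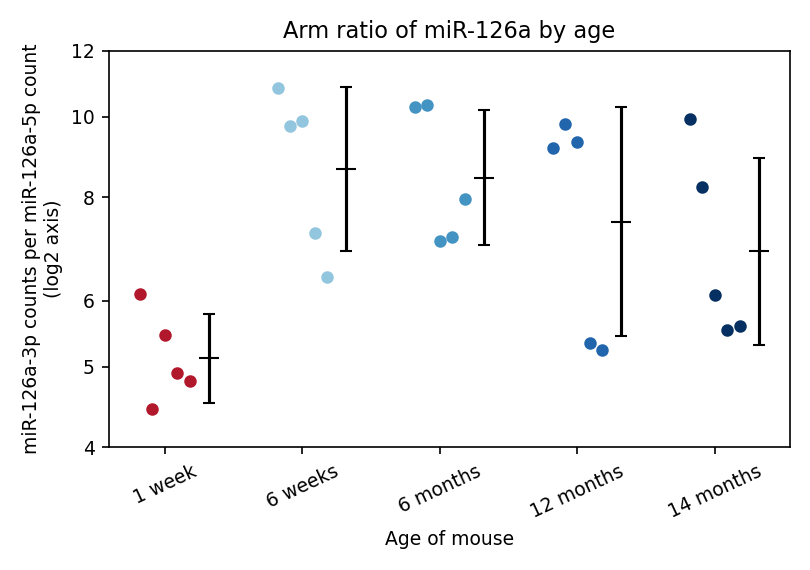
Counts of miR-126a-3p per count of miR-126a-5p in each library by age, on a log2 axis, with the mean and SD of the log2 ratio of 5 mice beside the points. The 5 libraries of 1 week lie at 4.45 to 6.11, those of 6 weeks and 6 months lie above them, and those of 12 and 14 months reach into their range.

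A change of arm ratio between 1 week and 6 weeks was not particular to miR-126a. In the same limma fit 39.2% of the 79 hairpins were called at 6 weeks against 1 week, 19% with the 3p arm higher against the 5p arm and 20.3% with it lower. For the 4 adult ages 45.6% were called, 26.6% with the 3p arm higher and 19% with it lower. For the later steps limma called 1.27% at 6 months against 6 weeks. The median change over the 79 hairpins at 6 weeks was -0.034, with quartiles of -1.17 and 0.97, and 23 hairpins had a larger rise than miR-126a. By level of the ratio miR-126a was a hairpin with a clear 3p bias, 2.85 on the log2 scale over all libraries, and 31 of the 79 hairpins had more 3p than 5p counts, 16 of them with a higher ratio than miR-126a. The 3 hairpins with the nearest ratios were miR-144, an erythroid miRNA, miR-376a and miR-362. Their log2 ratios differed at 6 weeks against 1 week by -0.23, -1.73 and -0.65, none called (limma adjusted p = 0.695, 0.105 and 0.505).

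**Figure D4:**
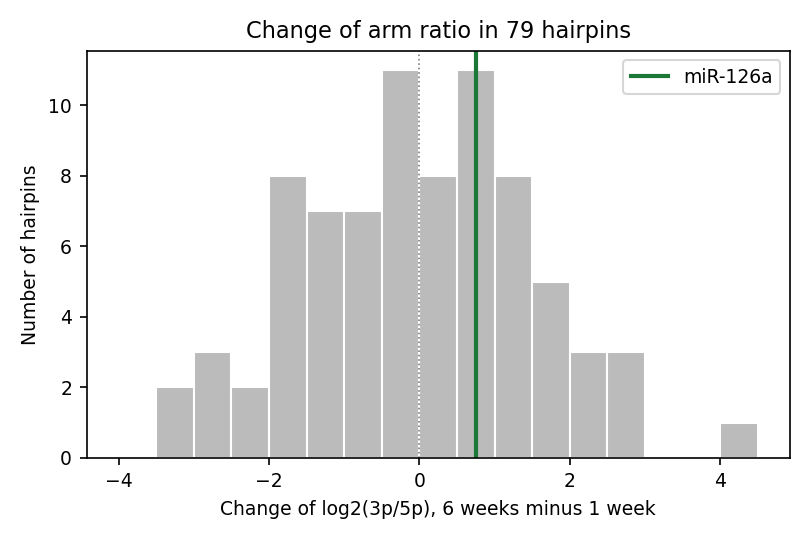
Histogram of the change of log2 arm ratio at 6 weeks against 1 week in the 79 hairpins with both arms tested, with miR-126a as the green line at 0.76. The changes run from -3.45 to 4.35 and 23 hairpins lie to the right of the line.

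The arm ratio of miR-126a moved with the depth of the library. Over the 20 adult libraries the log2 ratio and the log2 library total had a Pearson r of -0.75 (permutation p = 0.00016, adjusted over 14 relations 0.00224) and a Spearman rho of -0.69 (adjusted permutation p = 0.00819). Without the 2 libraries farthest from the median total r was -0.65, and with age means removed it was -0.73 (permutation p = 0.00248, adjusted 0.00694). The ratio was lower by 0.36 log2 units per doubling of the total. The 1-week libraries were left out of these relations because they form a group of their own, with totals of at least 2095925 counts.

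Which arm went with depth depended on the scale. With TMM scaling the level of the rarer arm did. The level of miR-126a-5p had r = 0.72 with the library total (permutation p = 0.00042, adjusted 0.00285), 0.57 without the 2 farthest libraries and 0.78 with age means removed (adjusted permutation p = 0.00285). For miR-126a-3p r was -0.24 (permutation p = 0.313, adjusted 0.398), and -0.066 with age means removed. Between the levels of the 2 arms no relation was called over the adult libraries (r = 0.059, rho = 0.12, permutation p = 0.806 for r). With age means removed r was 0.12 in these 20 libraries and 0.37 over all 25. No interval of r was computed, so a relation of the arms could not be told from none. On raw shares the relations were of another size. The share of miR-126a-5p had r = 0.44 with depth (adjusted permutation p = 0.0889), 0.20 without the 2 farthest libraries and 0.67 with age means removed (adjusted permutation p = 0.00716). The share of miR-126a-3p had r = -0.67 with depth (adjusted permutation p = 0.00448) and -0.48 with age means removed (adjusted permutation p = 0.098), which stands beside its lower values at 14 months, the adult age with the deepest library. The log2 ratio of miR-126a-3p to miR-122-5p had r = -0.58 with depth (adjusted permutation p = 0.0156). It was -0.37 with age means removed (adjusted permutation p = 0.244). The part of depth in the differences of this share and this ratio at 14 months was not tested.

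Of the 20 adult libraries, 7 were at least as deep as the shallowest 1-week library, with 2461193 to 3989776 counts. These were mouse 14 of 6 months, mice 18 to 20 of 12 months and mice 23 to 25 of 14 months. No 6-week library was among them, so the deep set differs from all adult libraries in age as well as in depth. The arm ratios of these 7 were 5.23 to 9.31 with a median of 5.60. In the 1-week libraries they were 4.45 to 6.11 with a median of 4.91, and 5 of the 7 lay inside that range. Mouse 18 of 12 months, at 9.31, was the deep library with the highest ratio. In the other 13, shallower adult libraries the ratio was 6.40 to 10.8 with a median of 9.75, and none lay inside the 1-week range. This split was chosen after the values were seen. In the deep adult libraries the log2 arm ratio was 0.28 above 1 week (exact permutation p = 0.0732, limma adjusted p = 0.197), against 0.61 with all adult libraries. With TMM scaling the level of miR-126a-3p was 0.79 ± 0.17 above 1 week there (SE, edgeR adjusted p = 4.78e-04). The level of the 5p arm was called as well, at 0.54 ± 0.18 (edgeR adjusted p = 0.0140). The share of miR-126a-3p in raw counts was on average lower there than at 1 week, so the sign of its difference depended on the scale.

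With the log2 library total as a term of the model over all 25 libraries, the arm ratio at 6 weeks against 1 week was 0.22 (limma adjusted p = 0.537) and for the 4 adult ages 0.30 (adjusted p = 0.152). In the edgeR model with that term miR-126a-3p was 0.77 higher at 6 weeks (adjusted p = 0.00246) and miR-126a-5p 0.58 higher (adjusted p = 0.0293). The difference of the arms between 1 week and adult life was thus called without the depth term and in all adult libraries, and not called with the term or in the deep libraries alone. Depth and age are partly confounded here, since none of the 6-week libraries reached the depth of a 1-week library.

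**Figure D5:**
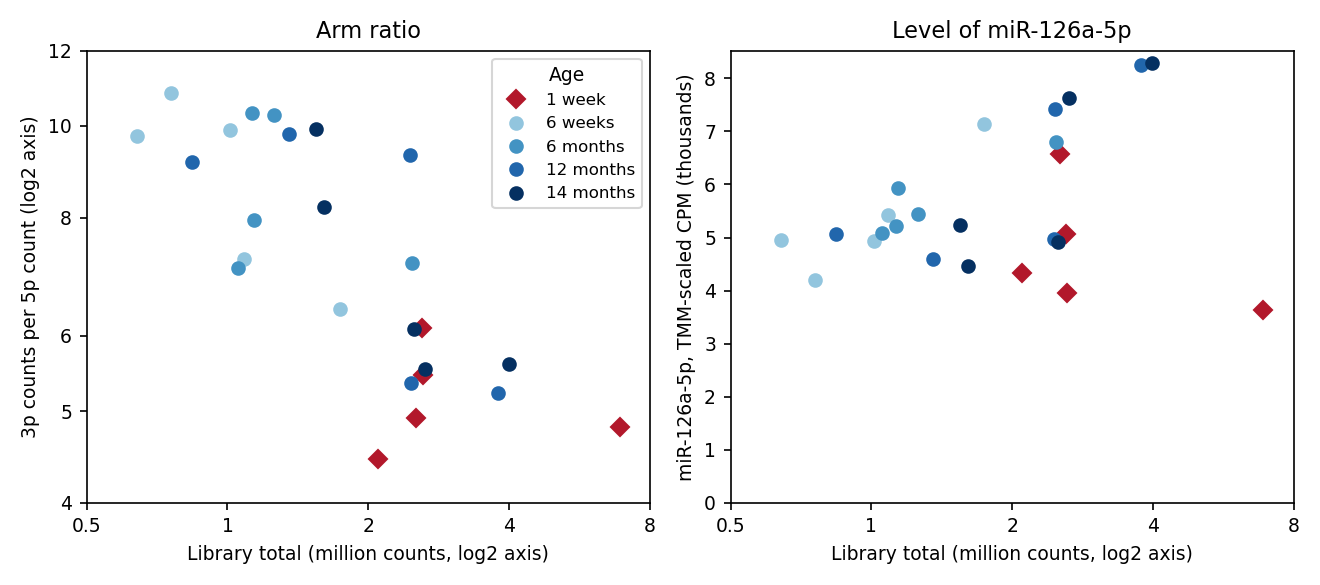
Arm ratio (left, log2 axis) and level of miR-126a-5p (right, in units of 1000 TMM-scaled CPM) against the library total in units of 1000000 counts (log2 axis), 1 point per library, with 1-week libraries as red diamonds and adult ages in blues. Among the adult libraries deeper ones have lower arm ratios (r = -0.75) and higher 5p levels (r = 0.72), and the deep adult libraries overlap the 1-week libraries in arm ratio.

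Across the 79 hairpins this relation of arm ratio to depth had no common direction. Over the adult libraries r was negative in 39 of the 79 and its median was 0.0060, with a range of -0.78 to 0.84. MiR-126a had a more negative r than all but 1 of them, and with age means removed the most negative of the 79. These values share the same 20 libraries and are a description.

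Other miRNAs known from endothelium or vessel growth, a list of 23 besides the members, moved in both directions. Of the 20 that were tested, 11 were higher at 6 weeks than at 1 week, 6 were lower and 3 did not pass (edgeR), beside 35% higher and 36.8% lower over all tested entries. Their median log2 fold change was 0.83, beside 0.12 over all tested entries. The a and b forms of miR-23, miR-27 and miR-10 had nearly equal counts, within 0.3 log2 units in every library. With each such pair counted once, 8 of 17 were higher and 6 lower, with a median of 0.44. With library totals alone 6 of the 20 were higher and 8 lower, with a median of 0.18, beside 88 higher and 178 lower of all 391. Those of highest mean level were miR-27b-3p (2.02 ± 0.15), miR-27a-3p (1.93), miR-23b-3p (2.85 ± 0.22) and miR-23a-3p (2.77), log2 fold changes with edgeR adjusted p of at most 3.36e-11. They come from a pair of related clusters that are known to act in vessel growth, and the 4 values stand for 2 results. Among those lower at 6 weeks were the hypoxia-responsive miR-210-3p (-2.44), the growth-inhibiting miR-322-5p (-3.13 ± 0.35) and miR-503-5p (-2.96). The summed share of the list was 1.57% to 2.13% at 6 weeks, against 0.791% to 1.16% at 1 week, and the miR-23 and miR-27 entries carried that difference. Those 4 entries held 1.26% to 1.83% of counts at 6 weeks, against 0.298% to 0.756% at 1 week. The other 19 entries held 0.279% to 0.314% at 6 weeks, against 0.366% to 0.796% at 1 week, so their sum was lower at 6 weeks. Along adult life the mean share of the 4 entries was 1.55% (6 weeks), 1.45% (6 months), 1.37% (12 months) and 1.20% (14 months), and that of the other 19 was 0.295%, 0.317%, 0.314% and 0.299% at the same ages. This split was made after the values were seen. At 14 months against 6 weeks 2 of the 20 were called, beside 3.84% of all tested entries, both higher and both of 1 cluster that is known to restrain vessel growth, miR-221-3p (0.61 ± 0.16, edgeR adjusted p = 0.0329) and miR-222-3p (0.86 ± 0.24, adjusted p = 0.0429).

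Markers of other liver cells also differed at 6 weeks against 1 week, where 35% of all tested entries were higher and 36.8% lower. On the TMM scale all 8 hepatocyte miRNAs were higher, with a median of 2.14, among them miR-122-5p (0.56 ± 0.12) and miR-192-5p (2.27 ± 0.21). Their summed share of raw counts was not higher in the same way. It was 66.7% to 72.1% at 6 weeks (mean 70.2%), against 64.6% to 74.8% at 1 week (mean 70.1%). MiR-122-5p, at 58.3% of counts over the 25 libraries, made up most of this sum, so the sum says little about the other entries of the list. Of 5 erythroid miRNAs 4 were lower and 1 did not pass, with a median of -1.91. This list counts the near-equal a and b forms of miR-486-5p each, as the stellate list does those of miR-199-3p. Of 7 leukocyte and platelet miRNAs 5 were lower and 2 did not pass, with a median of -0.91, and their summed share was 0.456% to 0.643% at 6 weeks, against 1.41% to 1.62% at 1 week. Platelets and blood stem cells are known to hold miR-126, and blood-forming cells fill part of the early postnatal liver. The part of blood-derived vesicles in the miR-126a values at 1 week was not tested. Of 8 stellate and smooth muscle miRNAs tested 3 were higher and 5 did not pass, with a median of 0.027, and all 6 epithelial miRNAs were lower, with a median of -1.41. With library totals alone 88 of all 391 entries were higher and 178 lower. On that scale 6 of the 8 hepatocyte miRNAs were higher and none lower, with a median of 1.50. All 5 erythroid, all 6 epithelial and 6 of 7 leukocyte and platelet miRNAs were lower on it. The stellate and smooth muscle list turned to 1 higher and 5 lower. No entry of these lists was at 0 in every library.

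By pattern over the 25 libraries, the named miRNAs with a mean of at least 50 CPM whose log2 level was most like that of miR-126a-3p were miR-192-5p (Pearson r = 0.90), miR-23b-3p (0.89), let-7f-5p (0.89), miR-23a-3p (0.88) and miR-192-3p (0.88), of 139 compared. The step between 1 week and adult life is shared by these libraries and sets much of such an r. The other arm of the same hairpin, miR-126a-5p, had r = 0.47 and stood at rank 72 of 140. With age means removed the most alike were miR-192-5p (0.76), miR-191-5p (0.65), let-7f-5p (0.64), miR-145a-3p (0.61) and miR-192-3p (0.60), and miR-126a-5p stood at rank 28 with r = 0.37. These correlations also share the scaling of each library and are given as a description.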

How the data were processed

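Per the labels' protocols, sEVs were spun down by ultracentrifugation from liver treated with a tumour dissociation kit, and their RNA went into QIAseq miRNA libraries read from both ends. The authors deposited 1 table of raw counts per miRNA, not normalized, with 25 columns, 1 for each mouse. Of its 1493 entries 1095 carry a miRNA name and 398 are called unconservative. Bowtie, edgeR and the build mm10 are named per the submitters' processing notes. Versions, the miRNA annotation, mismatches and whether reads or unique molecular identifiers were counted are not given in the sources used here. The Wilson intervals of single-library shares cover counting error only. Intervals of fold changes and of arm ratios come from the edgeR and limma fits and include the spread between mice. Separate mice are replicates, and p-values set a result against the spread between them.

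The members and lists were chosen with earlier results of these data known. R 4.3.3 with edgeR 4.0.16 and with limma 3.58.1 was used for the count models: filterByExpr (391 tested, 1102 not), TMM, 1 robust quasi-likelihood model of 25 libraries (biological coefficient of variation 37.6%), Benjamini-Hochberg over all tested entries at 0.05. The SE of a fold change is its size over the square root of F. Arm ratios, log2 of counts plus 0.5, were fitted with limma over 79 hairpins with both arms tested. For shares and ratios 24 exact permutation tests, two-sided, were run (scipy 1.17.1), adjusted over the 6 comparisons of each of 4 measures. Relations used 100000 permutations, within age where age means were removed. Comparisons with 1 week share the same 5 libraries. Alternatives were other scalings, filters, tests (DESeq2 1.42.0, limma-voom), pseudocounts, denominators, a depth term and leaving out each mouse. The models were also run on simulated counts in which every age had the same base profile, with set changes at 6 weeks. These counts held neither the shift of scaling at 1 week nor a relation of arm ratio to depth, so they do not bear on either. Named besides the members were up to 4 miRNAs of a list by mean level, the 5 most alike and the 3 hairpins of nearest arm ratio. Others named from the endothelial list were chosen after their values were seen.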

Additional observations from a re-analysis of the deposited data

How the results depend on the processing

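Over 45 results and 829 alternatives, 758 kept their direction and their side of the threshold, 8 lost a call, 8 gained one and 55 turned sign. Most of these, 575, left out 1 mouse, of which 550 were the same, 1 gained a call and 24 turned sign. Of the 254 other alternatives 208 were the same, 8 lost a call, 7 gained one and 31 turned sign. No paired analysis was possible because no mouse number occurs at more than 1 age. Values below are log2 differences, or percentage points for shares, and the cause of each change was not tested.

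For the level of miR-126a-3p, library totals alone gave 0.25 at 6 weeks against 1 week, 0.094 for the 4 adult ages, -0.052 at 6 months against 6 weeks and an edgeR adjusted p of 0.115 over the ages. For miR-126a-5p they gave -0.47 at 6 weeks against 1 week, -0.50 for the adult ages, -0.042 at 6 months against 6 weeks, -0.11 at 14 against 12 months, -0.098 at 14 months against 6 weeks and an adjusted p of 0.0117 over the ages. Upper-quartile factors gave the 5p arm 0.64 at 6 weeks, 0.68 for the adult ages, -0.14 at 14 against 12 months, -0.0052 at 14 months against 6 weeks and an adjusted p of 0.0124. DESeq2 size factors gave it -0.29, -0.18 and, at 14 against 12 months, -0.025, and the DESeq2 test -0.28, -0.18 and -0.025. Without a filter it was -0.12 at 6 weeks. At 14 against 12 months it was -0.037 with TMM without miR-122-5p, -0.037 with the filter of 10 CPM and -0.047 in only the ages compared. The adult ages against 1 week already use all libraries, so that last setting was not run for them.

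With the library total as a term, miR-126a-5p was 0.58 at 6 weeks, 0.52 for the adult ages, -0.015 at 6 months against 6 weeks, -0.068 at 12 against 6 months, -0.062 at 14 against 12 months and -0.15 at 14 months against 6 weeks. The arm ratio was then 0.22 at 6 weeks, 0.30 for the adult ages, 0.11 at 6 months against 6 weeks and 0.077 at 14 months against 6 weeks. In the deep adult libraries, a choice made after seeing the data, the arm ratio was 0.28, the 5p level 0.54 and the 3p share -0.354 against 1 week. Without miR-122-5p in the denominator the 3p share of the adult ages was -0.543. With medians the arm ratio at 6 weeks was 0.99 (exact adjusted p = 0.143) and at 12 against 6 months 0.20, the 5p share 0.0220 at 6 months against 6 weeks and -0.0363 at 12 against 6 months, and the log2 ratio to miR-122-5p 0.027 and 0.033.

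Leaving out 1 mouse at a time lost no call. It gave 0.80 to 1.07 for miR-126a-3p and 0.68 to 0.87 for the arm ratio at 6 weeks against 1 week. The ranges that crossed 0 were -0.14 to 0.046 for the arm ratio, -0.017 to 0.22 for the 5p level, -0.077 to 0.033 for the ratio to miR-122-5p and -0.0472 to 0.0263 for the 5p share at 6 months against 6 weeks. They were -0.16 to 0.13 for the 5p level at 14 against 12 months, and for the 5p share -0.0166 to 0.0373 at 12 against 6 months and -0.0664 to 0.00709 at 14 months against 6 weeks. The 5p level of the adult ages ran from 0.21 to 0.52, and was called without mouse 5 of 1 week. The number of entries tested differed between settings. Calls over all entries at 14 months against 6 weeks ran from 7 of 391 with the depth term to 28 of 246 in only the ages compared, beside 15 of 391. At 6 months against 6 weeks they ran from 1 of 408 without mouse 14 to 10 of 391 with DESeq2, beside 7 of 391. For the adult ages they ran from 264 of 316 with the filter of 10 CPM to 590 of 1493 without a filter, beside 312 of 391.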
